A study of Mus musculus with 8 samples.

Results

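p53 is a transcription factor that is kept at a low level by the ubiquitin ligase Mdm2 and its partner Mdm4, and that binds DNA and activates its target genes when kinases such as Atm respond to DNA damage or other stress. Its targets halt the cell cycle, repair DNA, change metabolism and redox state, or lead to cell death, and some of them, such as *Mdm2* and *Ppm1d*, feed back on p53 itself. Several of the targets, the Gadd45 genes and *Btg2* among them, are also induced by other signals without p53, so that their mRNA is not a measure of p53 alone. The 34 genes described here are the p53 family and a set of p53 target genes, listed by name, out of 19751 gene symbols that could be paired with a probe.

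Gene expression was measured in AtT20 cells, a mouse line of pituitary corticotroph tumor cells, on 4 control arrays and on 4 arrays of cells treated with HX630, a synthetic agonist of the retinoid X receptors (RXRs). The treated cells received 10 μM HX630 for 48 hr, and the control cells were kept for the same 48 hr without it, both in medium with a low content of stripped serum. Nothing in the labels says that the replicates came from separate cultures on separate days, so p-values measure only the spread between these samples, which may be technical. Slide 1 held the 4 control arrays and slide 2 the 4 HX630 arrays, and the slides were scanned separately, so that treatment cannot be told apart from slide and scan. The 8 corticotroph markers examined were all above background on all 8 arrays. Of 8 markers of other hormone cells, *Gh*, *Lhb* and *Nr5a1* were above background on all 8 arrays, *Pou1f1* and *Fshb* on some, and *Prl*, *Tshb* and *Cga* on none, and *Gh* fell by 0.79 on the log2 scale (adjusted p = 6.062e-04). The summed level of the 8 corticotroph markers ranged from 9.06 to 9.38 in the control and from 8.70 to 8.78 with HX630 on the log2 scale, a sum that the brightest probes carry. Singly, 3 of these markers were higher and 5 lower. *Pcsk1* fell, *Neurod1* and *Crhr1* rose by 0.72 and 1.11, and *Nr3c1* was higher by 0.43, under the fold threshold. *Pomc*, *Chga*, *Tbx19* and *Pitx1* were lower, with log2 fold changes of -0.45, -0.39, -0.37 and -0.32, also under the fold threshold. The summed level of 5 leukocyte markers, all above background on all 8 arrays, ranged from 1.54 to 1.81 and from 0.42 to 0.69. *Cd3e*, the brightest of these, fell by 1.44, and *Csf1r* fell by 0.72 at its brightest probe. *Ptprc*, *Cd79a* and *Cd14* were under the fold threshold, with log2 fold changes of -0.45, -0.45 and 0.42. The sum of 4 endothelial markers, of which *Cdh5* and *Tek* were above background on none, ranged from 1.44 to 1.75 and from 1.11 to 1.40. Its brightest probe, of *Kdr*, had a log2 fold change of -0.36, the other *Kdr* probe had one of -0.06, and *Pecam1* fell by 0.59. The sum of 6 fibroblast markers, with *Lum* and *Pdgfra* above background on none, ranged from -3.20 to -2.94 and from -3.11 to -2.61. The part of these markers in the results below was not tested. Because whole cultures were measured, fewer cells of one kind and less RNA per cell cannot be told apart.

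Signals are given as the log2 of the processed intensity minus the 75th percentile of the array, so that 0 stands for that percentile. A gene was called, and is said to have risen or fallen, at an adjusted p below 0.01 (limma, Benjamini-Hochberg over 28552 probes) together with a fold change above 1.5, which is 0.585 on the log2 scale. Where several probes of a gene were tested, the brightest one stands for the gene. All 34 genes had a probe. Of these, 29 were above background on all 8 arrays and were tested, and 5 were too dim for a test, namely *Rprm*, *Dram1*, *Rrm2b*, *Eda2r* and *Igfbp3*.

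Of the 29 genes tested, *Perp*, *Gadd45b*, *Gadd45a* and *Sesn3* rose with HX630, and *Gadd45g* and *Plk2* fell. This was 20.7% of the members, beside 19.5% of the 15319 genes tested on the array, of which 8.38% rose and 11.2% fell. The share of members called was thus near that of all genes. With the adjusted p alone, 22 members passed, 11 of them higher and 11 lower, beside 51.2% of all genes, 24% higher and 27.2% lower. The groups did not overlap for 22 members, again 11 in each direction, beside 61.5% of all genes. The median log2 fold change of the members was -0.09 and that of all genes was -0.03, with 12 members above 0 and 17 below, which became 19 and 10 with scaling to spike-in probes and 14 and 15 with scaling to the median or normexp background correction. The median absolute change was 0.39 for the members and 0.28 for all genes. Replicates lay close together, with a median within-group SD of 0.055 for the members and of 0.076 for all genes, and *Gadd45a* had the widest spread of the members at 0.226.

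**Figure D1:**
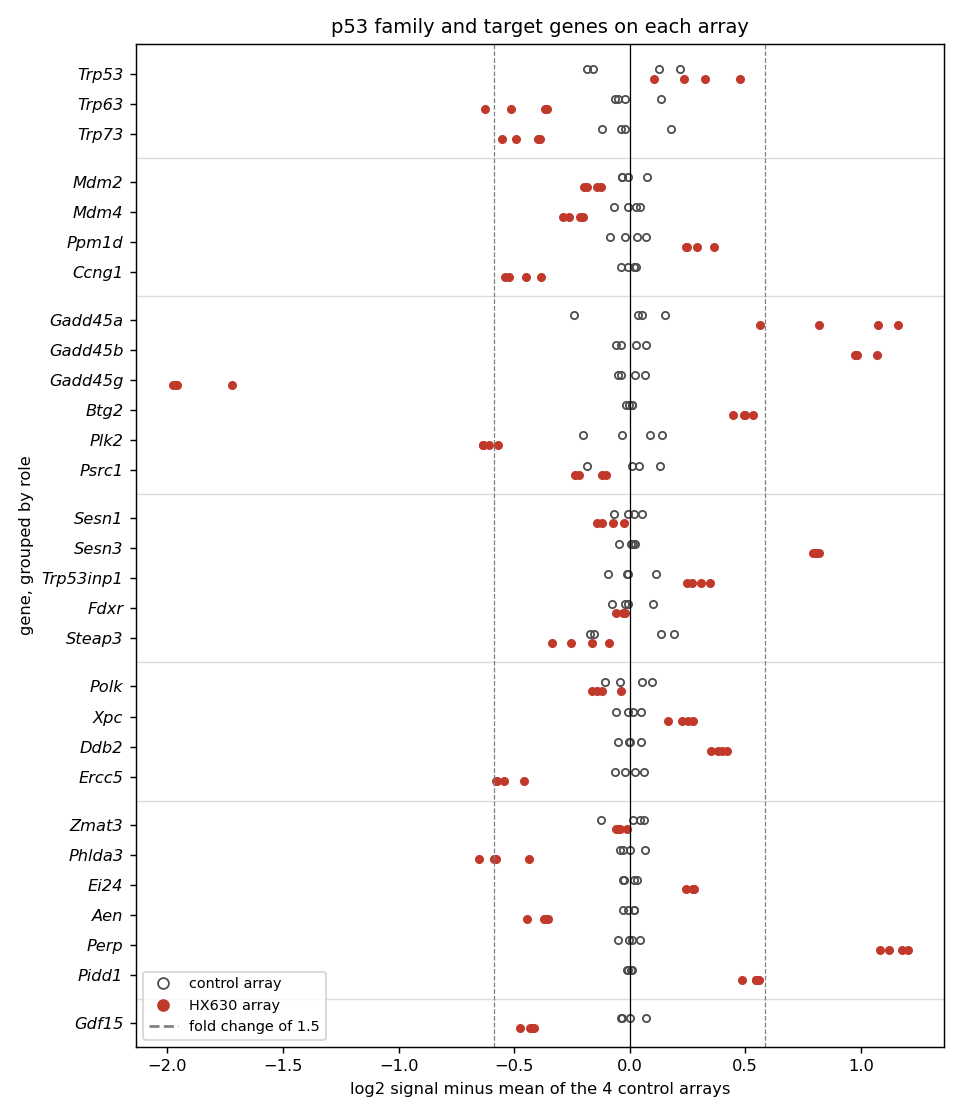
Each row is 1 of the 29 tested genes, grouped by role, and the x axis gives the log2 signal of each array minus the mean of the 4 control arrays (open circles, control; filled circles, HX630; dashed lines, a fold change of 1.5). The HX630 arrays of *Gadd45g* lie farthest to the left and those of *Perp* farthest to the right, whereas most other members stay between the dashed lines.

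The sequences upstream of the 3 Gadd45 genes and of *Plk2* are shown because the paralogs moved in opposite directions and because *Plk2* fell with *Gadd45g*. They are the 250 bases before the start site in RefSeq on GRCm38.p6, written on the strand of the gene. Capitals mark a p53 half-site or a cAMP response element (CRE, TGACGTCA), each searched on both strands. Also searched were the nuclear receptor half-site AGGTCA and the AP-1 site TGANTCA, of which these 4 sequences hold none.
*Gadd45a*, chr6:67037408-67037657, minus strand: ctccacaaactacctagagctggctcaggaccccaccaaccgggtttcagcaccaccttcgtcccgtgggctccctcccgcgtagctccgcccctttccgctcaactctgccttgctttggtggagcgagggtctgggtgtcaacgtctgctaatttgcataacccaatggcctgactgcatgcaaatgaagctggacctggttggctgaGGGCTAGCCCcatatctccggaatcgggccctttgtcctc
*Gadd45b*, chr10:80929841-80930090, plus strand: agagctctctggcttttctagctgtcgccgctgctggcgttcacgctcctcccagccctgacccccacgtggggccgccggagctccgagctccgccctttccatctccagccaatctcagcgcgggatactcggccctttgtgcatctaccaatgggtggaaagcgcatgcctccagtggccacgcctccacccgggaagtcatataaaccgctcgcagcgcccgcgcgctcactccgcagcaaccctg
*Gadd45g*, chr13:51846425-51846674, plus strand: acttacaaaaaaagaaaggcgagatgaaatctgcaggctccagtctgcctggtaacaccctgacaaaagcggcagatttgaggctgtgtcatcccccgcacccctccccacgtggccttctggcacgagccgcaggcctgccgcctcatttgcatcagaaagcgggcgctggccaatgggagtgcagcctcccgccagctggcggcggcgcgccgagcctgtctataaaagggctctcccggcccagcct
*Plk2*, chr13:110394794-110395043, plus strand: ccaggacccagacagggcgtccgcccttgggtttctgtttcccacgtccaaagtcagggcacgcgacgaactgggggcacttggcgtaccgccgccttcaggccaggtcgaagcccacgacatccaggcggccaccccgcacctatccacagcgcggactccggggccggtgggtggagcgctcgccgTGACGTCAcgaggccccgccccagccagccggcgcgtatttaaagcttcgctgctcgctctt

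The p53 half-site of *Gadd45a* begins at position -40 from the start site, and the CRE of *Plk2* at position -62. Over the 300-base promoters of the RefSeq table, which hold 37 promoters of 27 members, a p53 half-site was found in 10 promoters (27%), beside 8.36% of all 32851 promoters. *Trp53*, *Mdm2*, *Ccng1*, *Ppm1d*, *Sesn1*, *Polk*, *Ei24* and *Aen* also had one. The members were listed as p53 targets, so this share describes the list. A pair of half-sites at most 13 bases apart, the full p53 element, was in 0 of the 37 promoters and in 0.0731% of all promoters. The CRE, which binds Creb, was in 3 promoters (*Btg2*, *Plk2* and *Ppm1d*; 8.11%), beside 1.79% of all. The half-site AGGTCA to which RXR partners bind was in 13.5% of the member promoters and in 16.3% of all promoters, and its direct repeat with 1 base between was in 0 and in 0.0396%. The AP-1 site was in 2.7% and 7.81%, and the GC box GGGCGG in 62.2% and 35.7%. These windows hold letters only, and binding was not measured. A match is not a site in use.

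The Gadd45 proteins are small stress proteins that bind Pcna, cyclin B1 with Cdk1, and the kinase Map3k4. *Gadd45a* is the member that p53 activates directly. Its signals were 1.30, 1.59, 1.69 and 1.57 on the control arrays and 2.10, 2.36, 2.70 and 2.61 on the HX630 arrays. All HX630 arrays were above all control arrays, although the HX630 arrays were spread over a wide range. The mean rose from 1.54 ± 0.17 to 2.44 ± 0.27 (SD, n = 4), which is a change of 0.91 on the log2 scale with a standard error of 0.14 (adjusted p = 9.841e-04) or 187.3% of the control. *Gadd45b*, which is known as an NF-κB and TGF-β target, had signals of -0.09, -0.03, 0.01 and -0.11 in the control and of 0.92, 0.93, 1.02 and 0.92 with HX630. The groups lay far apart beside their narrow spread. *Gadd45b* rose by 1.00 ± 0.043 (SE) on the log2 scale (adjusted p = 8.416e-07), to 200.2% of the control.

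*Gadd45g*, which is induced by cytokines and has been described as silenced in pituitary tumors, went the other way. Its signals were 3.46, 3.50, 3.38 and 3.40 in the control and 1.71, 1.46, 1.47 and 1.47 with HX630. This was the member with the largest change, and its HX630 replicate 1 stood above the other 3 HX630 arrays. The log2 fold change was -1.90 with a standard error of 0.065 (adjusted p = 3.629e-07), and *Gadd45g* was 3.74-fold lower with HX630. The same 3 directions, each past both thresholds, were obtained under all 22 alternatives of processing. The lowest and highest log2 fold changes over these were 0.82 and 1.13 for *Gadd45a*, 0.98 and 1.22 for *Gadd45b*, and -1.97 and -1.68 for *Gadd45g*.

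**Figure D2:**
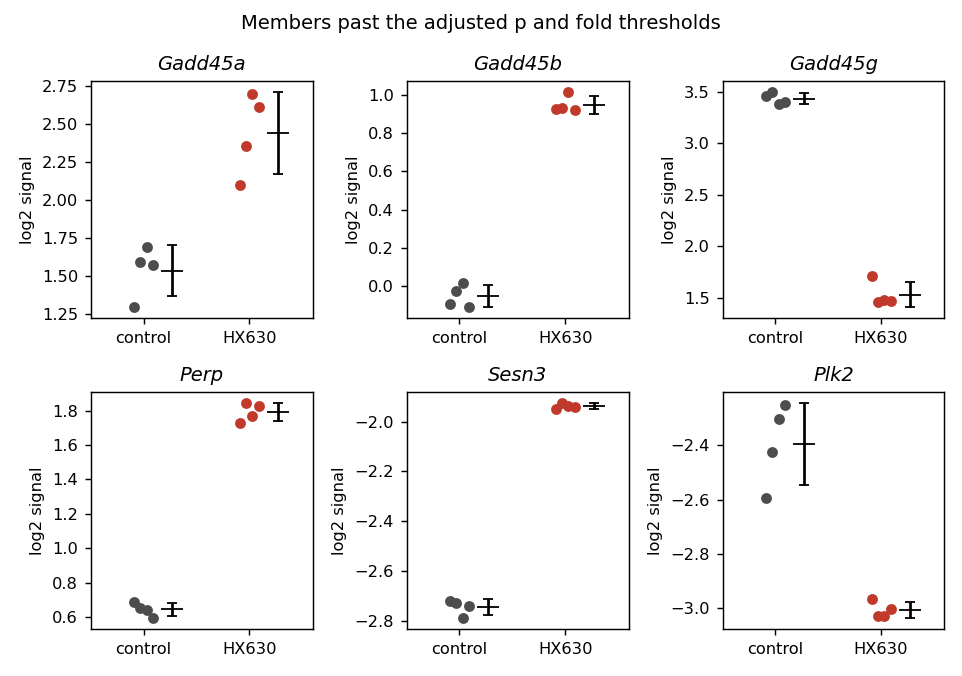
The log2 signals of the 6 called genes are plotted by group, 1 point per array, with the mean and SD (n = 4) beside them. Each panel has its own y axis, so signals are compared within a gene only. In each panel the 4 HX630 arrays lie on one side of the 4 control arrays, with the widest spread in *Gadd45a* and in the control arrays of *Plk2*.

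The other genes of growth arrest and early response gave mixed values. *Plk2* encodes a polo-like kinase that is an immediate response gene and a p53 target. It had signals of -2.59, -2.43, -2.30 and -2.25 in the control and of -2.96, -3.03, -3.03 and -3.001 with HX630. The HX630 arrays were tightly grouped and below all control arrays. Its log2 fold change was -0.61 with a standard error of 0.074 (adjusted p = 2.16e-04), so that it lay just past the fold threshold at 1.53-fold lower. The call was lost under 5 alternatives, with log2 fold changes of -0.55 after quantile normalization, -0.52 with scaling to the median, -0.39 with scaling to spike-in probes, and -0.58 and -0.56 without control replicates 3 and 4. *Btg2*, an antiproliferative gene that p53 induces, was near 1.14 on each control array and between 1.59 and 1.68 on the HX630 arrays. It was higher by 0.49 (SE 0.032, adjusted p = 6.631e-06), under the fold threshold. *Psrc1*, which encodes a protein of the mitotic spindle and is regulated by p53, had a log2 fold change of -0.17 (adjusted p = 0.07502), which turned to 0.05 with spike-in scaling. *Rprm*, a mediator of G2 arrest, was above background on 2 control arrays and on 0 HX630 arrays.

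The 3 family genes were not called at their brightest probes. *Trp63* and *Trp73* passed the adjusted p, beside 51.2% of all genes, but not the fold threshold. *Trp53* had signals of -0.94, -0.91, -0.63 and -0.53 in the control and of -0.65, -0.52, -0.43 and -0.27 with HX630. The groups overlapped, and the log2 fold change of 0.29 (SE 0.12) had an adjusted p of 0.06788. *Trp63* and *Trp73* encode the related factors p63 and p73, which bind the same kind of DNA element. The brighter probe of *Trp63* was lower by 0.47 (adjusted p = 0.001053), a fold change under the threshold, with signals from 2.84 to 3.04 in the control and from 2.28 to 2.55 with HX630. The other probe of *Trp63* was above background on 0 of the 8 arrays, so that the signal of *Trp63* rests on 1 of its 2 probes. The 3 probes of *Trp73* disagreed. The brightest gave a log2 fold change of -0.46 (adjusted p = 8.885e-04), whereas the dimmest, with signals from -6.45 to -6.23 in the control and from -5.57 to -5.39 with HX630, gave 0.80 (adjusted p = 2.687e-05). The third probe gave 0.13 (adjusted p = 0.5312), and the direction of *Trp73* is therefore uncertain. With normexp background correction *Trp73* was called lower by its brightest probe, at -0.60. p73 is made in forms that differ at both ends, but which transcripts the probes detect was not examined.

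**Figure D3:**
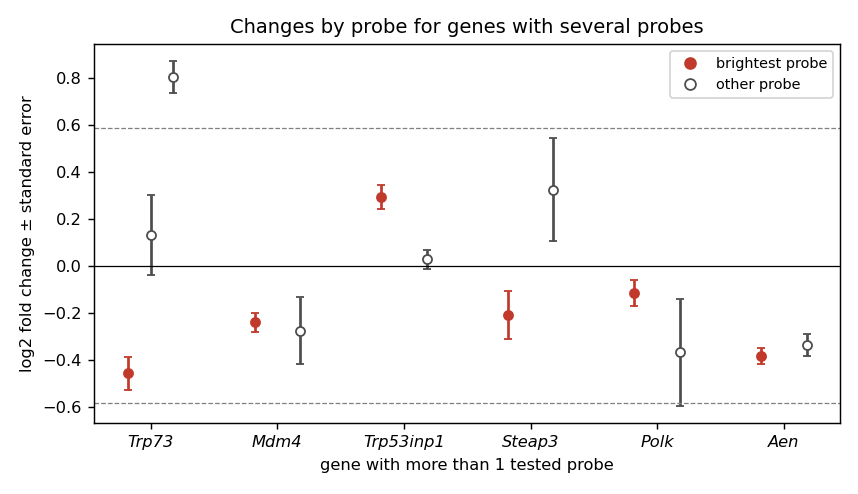
The log2 fold change with its standard error is plotted for each tested probe of the 6 members with more than 1 tested probe (filled, brightest probe; open, other probes; dashed lines, a fold change of 1.5). The probes of *Mdm4*, *Polk* and *Aen* lie on the same side of 0, whereas those of *Trp73* and *Steap3* lie on both sides.

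The feedback regulators changed by less than the fold threshold. *Mdm2*, the main ubiquitin ligase of p53, had a log2 fold change of -0.16 (SE 0.038, adjusted p = 0.007326), but this turned to 0.06 with spike-in scaling. Its signals were 3.55, 3.47, 3.44 and 3.45 in the control and 3.35, 3.34, 3.28 and 3.29 with HX630, which did not overlap. *Mdm4*, the partner that blocks the activation domain of p53, had a log2 fold change of -0.24 (adjusted p = 0.001082), which became -0.02 with spike-in scaling. *Ccng1*, which encodes cyclin G1 and is a p53 target that acts with a phosphatase on Mdm2, had one of -0.47 (adjusted p = 4.841e-05), with signals of 0.88, 0.87, 0.81 and 0.84 in the control and of 0.47, 0.40, 0.33 and 0.31 with HX630. *Ppm1d*, which encodes the phosphatase Wip1 that removes phosphates from p53 and its kinases, had one of 0.29 (adjusted p = 0.001222). All 4 genes had groups that did not overlap, 3 lower and 1 higher, beside 61.5% of all genes without overlap.

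Among the genes of metabolism and oxidative stress, *Sesn3* rose. Sestrins restrain mTORC1 and act in the defence against peroxides, and *Sesn3* is also known as a target of FoxO factors. The signals of *Sesn3* were -2.72, -2.73, -2.79 and -2.74 in the control and -1.95, -1.92, -1.94 and -1.94 with HX630. This was the smallest spread of all members, and the log2 fold change was 0.81 (SE 0.031, adjusted p = 5.221e-07). *Sesn1*, the sestrin more closely tied to p53, had a log2 fold change of -0.09 (adjusted p = 0.0971), with overlapping groups, and of 0.13 with spike-in scaling. *Trp53inp1*, which encodes a nuclear protein that acts in autophagy and cell death, had one of 0.29 (adjusted p = 0.001508) at its brighter probe and of 0.03 (adjusted p = 0.592) at the other. *Fdxr*, the mitochondrial ferredoxin reductase, and *Steap3*, a metalloreductase of endosomes, had log2 fold changes of -0.03 (adjusted p = 0.5392) and -0.21 (adjusted p = 0.11). The value of *Fdxr* turned positive under 5 alternatives, up to 0.19 with spike-in scaling, and that of *Steap3* turned to 0.01 with spike-in scaling and to 0.06 with the mean of its probes. *Dram1*, which promotes autophagy, was above background on none of the 8 arrays.

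The 4 tested DNA repair genes stayed under the fold threshold, and 3 of them passed the adjusted p, beside 51.2% of all genes. *Ddb2*, the damage sensor of nucleotide excision repair that p53 regulates, had signals of -0.41, -0.41, -0.46 and -0.36 in the control and of -0.03, -0.05, -0.01 and 0.01 with HX630. It was higher by 0.39 (SE 0.035, adjusted p = 4.041e-05), with all HX630 arrays above the control. *Xpc*, its partner in damage recognition, was higher by 0.23 (adjusted p = 0.001505). *Ercc5*, the nuclease that cuts beside the lesion in the same pathway, was lower instead, with a log2 fold change of -0.54 (SE 0.044, adjusted p = 2.403e-05) and 1.45-fold lower with HX630. *Polk*, a polymerase that copies past damaged bases, had one of -0.12 (adjusted p = 0.1073), which turned to 0.11 with spike-in scaling. *Rrm2b*, the p53-induced subunit of ribonucleotide reductase, was above background on 1 HX630 array at one probe and on none at the other.

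*Perp*, which encodes a membrane protein of desmosomes that p53 and p63 induce in cell death and in epithelia, showed the largest rise. Its signals were 0.69, 0.65, 0.64 and 0.59 in the control and 1.73, 1.85, 1.77 and 1.82 with HX630. The 4 HX630 arrays were far above the control arrays, and the log2 fold change was 1.15 (SE 0.040, adjusted p = 3.909e-07), or 221.5% of the control. *Pidd1*, the scaffold through which caspase 2 is activated, was near 0.38 on each control array and between 0.87 and 0.94 with HX630. It was higher by 0.54 (SE 0.031, adjusted p = 3.774e-06), 1.45-fold and thus under the fold threshold. *Ei24*, an endoplasmic reticulum protein, was higher by 0.27 (adjusted p = 1.668e-04). *Phlda3*, an inhibitor of Akt, went the other way, with signals of 3.41, 3.50, 3.44 and 3.39 in the control and of 3.00, 2.85, 2.86 and 2.78 with HX630. Its log2 fold change of -0.56 (SE 0.053, adjusted p = 5.119e-05) was nearest to the fold threshold from below, at 1.48-fold lower. *Phlda3* was called without HX630 replicate 1, and also with normexp background correction, at -0.64. *Aen*, a nuclease of apoptotic cells, had log2 fold changes of -0.38 and -0.34 at its 2 probes (adjusted p = 3.767e-05 and 4.95e-04). *Zmat3*, an RNA-binding protein, had one of -0.04 (adjusted p = 0.4922), which turned to 0.18 with spike-in scaling. *Eda2r*, a death receptor of the TNF family, was above background on none of the 8 arrays.

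Of the secreted factors, *Gdf15*, a stress cytokine that p53 and the integrated stress response induce, had signals of 3.20, 3.31, 3.24 and 3.21 in the control and of 2.77, 2.82, 2.81 and 2.83 with HX630. It was lower on all HX630 arrays, with a log2 fold change of -0.44 (SE 0.037, adjusted p = 2.941e-05), under the fold threshold. *Igfbp3*, which binds insulin-like growth factors, was above background on 1 HX630 array and on no control array.

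The remaining pathway genes were read from lists that hold none of the 34 genes. Of 27 other p53 targets, 23 were tested, of which 2 rose and 4 fell (26.1%), beside 19.5% of all genes, 8.38% higher and 11.2% lower. This split became 5 and 2 with spike-in scaling and 0 and 3 with normexp background correction. *Cdkn1a*, which encodes the Cdk inhibitor p21, had signals of 2.93, 3.08, 2.92 and 3.02 in the control and of 2.12, 2.00, 2.08 and 2.04 with HX630. The groups were far apart, and *Cdkn1a* fell by 0.93 on the log2 scale (SE 0.049, adjusted p = 2.379e-06), while its dimmer probe gave -1.78. *Gls2*, the p53-induced mitochondrial glutaminase, fell by 1.36 (adjusted p = 1.236e-06), and *Trp53i11* rose by 1.02 (adjusted p = 5.831e-06), although the latter was 0.42 and not called with normexp background correction. *Tigar*, *Ephx1* and *Tnfaip8* were the other called genes. The apoptosis genes *Bax* and *Bbc3* had log2 fold changes of 0.00 (SE 0.047, adjusted p = 0.9782) and -0.30 (adjusted p = 3.128e-04), and *Pmaip1* was above background on none of the 8 arrays.

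Of 40 kinases, acetylases, ubiquitin ligases and binding proteins that act on p53, 38 were tested. Of these, *Hipk2* was the one gene called, so that 2.63% of this list was called beside 19.5% of all genes. This count depended on the processing, with 6 called, all higher, with spike-in scaling. It was 2 after quantile normalization, with scaling to the median and with normexp. With limma's adjusted p alone 16 of the 38 passed, 10 higher and 6 lower, beside 51.2% of all genes, 24% higher and 27.2% lower. *Hipk2*, a kinase that phosphorylates p53, had signals of -0.77, -1.07, -0.96 and -0.94 in the control and of -0.14, -0.20, -0.15 and -0.32 with HX630. It rose by 0.73 (SE 0.072, adjusted p = 6.699e-05) at its brightest probe. Its other probe went the opposite way, with a log2 fold change of -0.10 (adjusted p = 0.1631), and by the mean of both the value was 0.32 and the call was lost.

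**Figure D4:**
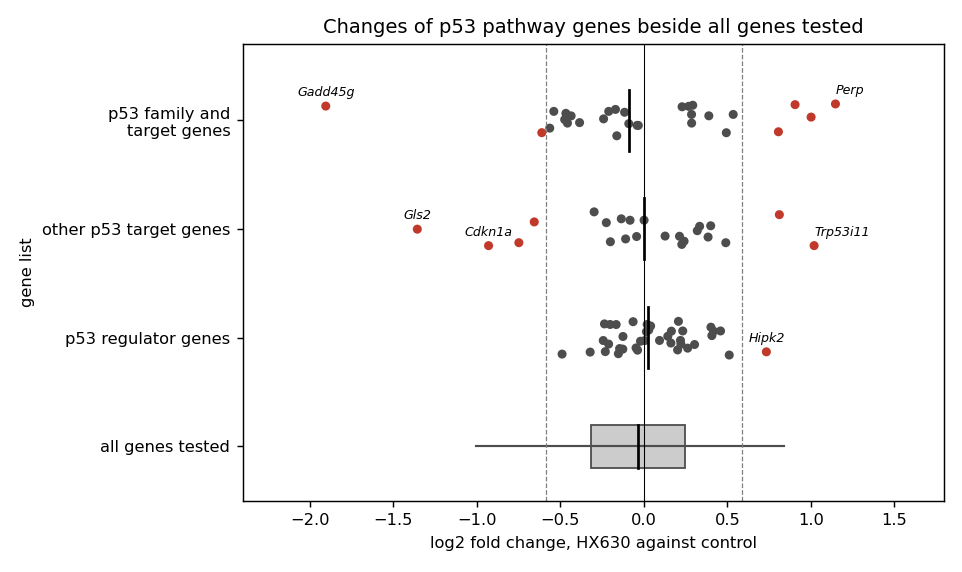
Each point is the log2 fold change of 1 gene, HX630 against control, for the p53 family and target genes, the other p53 targets and the p53 regulators (red, called; black bars, medians; dashed lines, a fold change of 1.5). The box shows the quartiles of all 15319 genes tested, with lines to the 5th and 95th percentiles. The regulators range from -0.49 to 0.73, with *Hipk2* alone past a dashed line, and *Gls2* at -1.36 and *Gadd45g* at -1.90 lie farthest to the left in their lists.

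The balance of rises and falls depended on how arrays were scaled to each other, since the median change of all genes moved from -0.03 to 0.19 with scaling to spike-in probes, a shift that raised each member by the same amount. The 4 rises and 2 falls of the members became 4 and 1 after quantile normalization, 5 and 1 with scaling to the median, and 7 and 1 with spike-in scaling. Over all probes, 2131 rose and 3184 fell, which became 2831 and 2657 with scaling to the median and 4189 and 1889 with spike-in scaling. *Gadd45a*, *Gadd45b*, *Gadd45g*, *Perp* and *Sesn3* were called in the same direction under each of these scalings. *Pidd1* was added with scaling to the median, and *Btg2*, *Ddb2* and *Pidd1* with spike-in scaling.

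**Figure D5:**
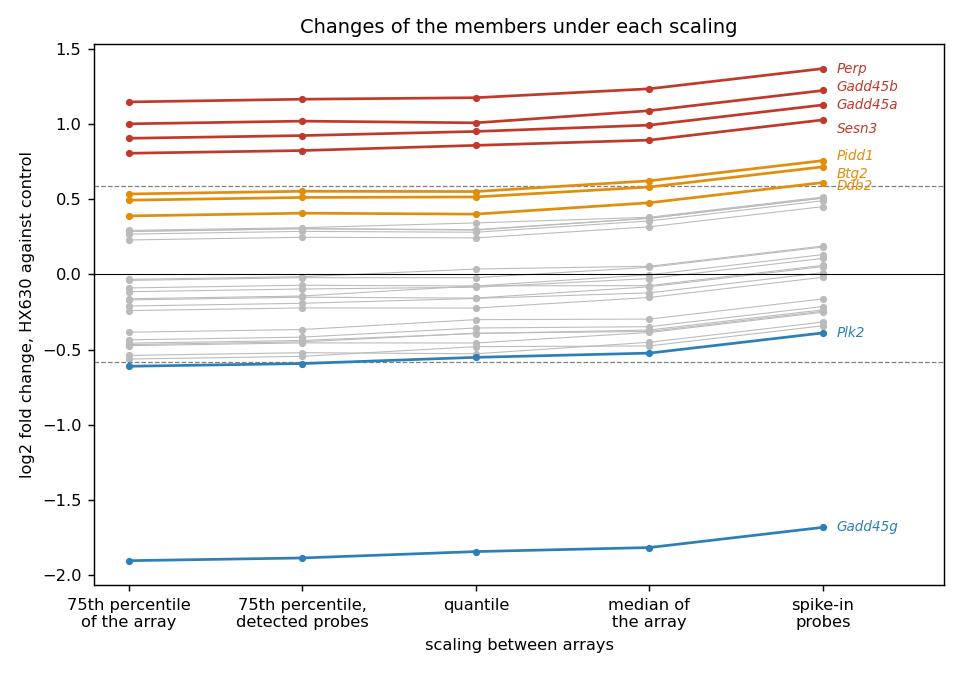
The log2 fold change of each of the 29 tested members (y axis) is joined across 5 scalings between arrays (x axis), with dashed lines at a fold change of 1.5. The lines run nearly parallel and climb to the right, so that *Pidd1*, *Btg2* and *Ddb2* pass the upper line and *Plk2* leaves the lower line, whereas *Gadd45g* stays far below it.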

How the data were processed

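Each sample was hybridized to 1 array and read in 1 color (Cy3). The authors deposited Feature Extraction 10.7.3.1 output, in which the processed intensity of each spot is background-subtracted and spatially detrended, and log2 values made in GeneSpring, which lay within 0.0013 of the log2 values computed here. The array's design used mm9. In R 4.3.3 with limma 3.58.1, control spots (1377 of 44397) and outlier spots were left out. The log2 intensities of the spots of a probe were averaged (39429 probes), and the 75th percentile over the probes of each array was subtracted. Tests were run on probes above background on 4 or more of the 8 arrays. The groups were compared by lmFit and eBayes over all 8 arrays with no covariate, whereas the study's methods name a t-test, which was run as an alternative. The 75th percentile of intensity lay between 1335 and 1863 in the control and between 1803 and 1899 with HX630 (exact permutation test, two-sided, p = 0.114), 69.7% to 73.5% of probes were above background, and no probe was saturated. The small number of arrays limits the precision. Names came from RefSeq accessions on GRCm38.p6 (66.1% of probes matched). All 34 members are named, with up to 3 called genes of each other list and *Cdkn1a*, *Bax*, *Bbc3* and *Pmaip1*. *Tigar*, *Ephx1* and *Tnfaip8*, the remaining called targets, and the markers were named after their values were seen. One further target was left out of its list and is not reported here. The members and lists were chosen with earlier results of these data known. Code was tested on simulated data. Alternatives were other scalings, normexp (offset 16), filters, tests, thresholds, the mean of probes, a block for the replicate number, and leaving out single arrays.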

Additional observations from a re-analysis of the deposited data

Results flagged for a closer look

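In 2 of 70 groups of 4 arrays, 1 array stood apart from the other 3 by Dixon's criterion, and chance gives 3.5 at 1 in 20. *Gadd45g* in HX630 replicate 1 had a signal of 1.71 against a mean of 1.47 on the other HX630 arrays, a gap of 0.93 of the group's range, and its log2 fold change without that array was -1.97. *Gadd45b* in HX630 replicate 3 had 1.02 against 0.92 (0.894 of the range), and its log2 fold change without it was 0.98.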

How the results depend on the processing

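Of 770 values of the 35 named genes under 22 alternatives, 720 kept their direction and their side of the thresholds, 7 lost the call, 24 gained it and 19 turned in direction. *Gadd45a*, *Gadd45b*, *Gadd45g*, *Perp* and *Sesn3* were called under every alternative. Calls gained with no fold threshold follow from its removal, and spike-in scaling raised each member by the same amount. The cause of the other changes was not tested.

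The members called lower (2) became 1 after quantile normalization, with scaling to the median and with spike-in scaling, 4 with normexp, and 11 with no fold threshold. Those called higher (4) became 7 with spike-in scaling and 11 with no fold threshold. The median change of the members (-0.09) was -0.0025 with scaling to the median, -0.072 over detected probes, 0.13 with spike-in scaling, -0.068 with normexp, -0.053 without the filter on dim probes and -0.033 with the mean of probes. The 6 other targets called became 3 with normexp and 16 with no fold threshold. The 1 regulator called became 2 after quantile normalization, with scaling to the median and with normexp, 6 with spike-in scaling, 16 with no fold threshold and 0 with the mean of probes. The 5315 probes called became 13008 with no fold threshold. With each array left out in turn, the members called lower ranged from 1 to 3, those called higher from 4 to 4, the median change from -0.098 to -0.072, the regulators called from 1 to 2, and the probes called from 4872 to 5447. *Phlda3* was the added fall without HX630 replicate 1, *Plk2* was lost without control replicate 3 or 4, and the second regulator was called without control replicate 1.

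*Fdxr* turned to 0.036 after quantile normalization, 0.054 with scaling to the median, 0.19 with spike-in scaling, 0.12 with normexp and 0.00063 without control replicate 1. Over the single arrays left out, *Fdxr* ranged from -0.058 to 0.00063 and *Bax* from -0.029 to 0.037. *Zmat3* turned to 0.048 with scaling to the median, 0.18 with spike-in scaling and 0.11 with normexp. With spike-in scaling, *Mdm2* turned to 0.060, *Psrc1* to 0.052, *Sesn1* to 0.13, *Steap3* to 0.012 and *Polk* to 0.11. *Bax* turned to -0.066 with normexp and to -0.0085, -0.029 and -0.010 without control replicate 2, control replicate 3 and HX630 replicate 1. With the mean of probes, *Trp73* turned to 0.16 and *Steap3* to 0.057.

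The labels share replicate numbers between groups, which are also positions on the slide. Deviations of same-numbered arrays correlated at 0.5234, -0.009264, 0.2425 and 0.3813, and those of differently numbered arrays at -0.4074 to 0.2635. The highest of these, for control replicate 3 with HX630 replicate 4, was close to the value of its same-numbered array. Whether the numbers pair the cultures or only mark the slide position cannot be told from these values, and the main fit did not pair the arrays. With the replicate number as a block, the same 6 members were called and 5555 probes against 5315, and the adjusted p of *Trp53* was 0.003961 at a fold change under 1.5. The 4 same-number differences of *Trp53* ranged from 0.20 to 0.39. No slide held both groups, and dim probes limit what can be said of the 5 untested members.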
